A study of Mus musculus with 21 samples.

Results

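The genes that encode the respiratory chain and ATP synthase from the nucleus were taken from the count table by symbol, with no measured value used. A gene was a member when its symbol began with Nduf, then a, b, c, s or v and a digit, was Sdha, Sdhb, Sdhc or Sdhd, or began with Uqcr, Atp5 or Cox4, Cox5, Cox6, Cox7 or Cox8. Pseudogene and Rik symbols were dropped. The rule found 84 of 24062 genes: 37 named for complex I, 4 for complex II, 8 for complex III, 18 for complex IV and 17 for complex V. RNA came from colon of C57BL/6 mice that were wild-type or App NL-G-F knock-in. App NL-G-F mice carry a humanised amyloid-beta sequence with the Swedish, Arctic and Iberian mutations in their own App gene, so no transgene promoter is involved and App counts do not check the genotype. The 7 groups held 3 libraries each: normal colon and tumours of wild-type males, of knock-in males and of wild-type females, and normal colon of knock-in females. The tumour samples are labelled AOM/DSS, that is azoxymethane, a colon carcinogen, with dextran sulfate sodium, an agent that injures the colon lining. The normal samples are labelled as not treated, while the series description also speaks of normal tissue beside tumours. By these labels, tumour state and AOM/DSS treatment cannot be told apart in any comparison of tumours with normal colon. Ages are not given. Nothing states that the libraries of a group came from separate animals, so p-values measure the spread between libraries, which may be technical in part.

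Complexes I, III and IV pump protons across the inner mitochondrial membrane while passing electrons from NADH to oxygen. Complex II, succinate dehydrogenase, feeds electrons from the citric acid cycle without pumping, and complex V, ATP synthase, uses the proton gradient to make ATP. Mitochondrial DNA encodes some core subunits of complexes I, III, IV and V, and nuclear genes encode the others, among them most of those described here, and the whole of complex II. Mature colonocytes rely on mitochondrial oxidation of butyrate, a product of gut bacteria, for much of their energy. No symbol in the count table began with mt-, the prefix of mitochondrially encoded genes, so those subunits were not analysed here.

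A low-count filter kept 79 members: 36, 4, 8, 14 and 17 of complexes I to V. Ndufs5, a complex I accessory subunit gene, Cox8c and Cox7b2 are listed at 0 counts in every library, and Cox6a2 and Cox8b, isoforms of heart and skeletal muscle, fell under the filter. Symbols do not always match current knowledge. Ndufa4 is now known as a subunit of complex IV, and Atp5s and Atp5sl, now called Dmac2l and Dmac2, are no longer counted as ATP synthase subunits. Exons of 28 members overlap those of another gene, in most cases on the opposite strand. Reads of such pairs cannot be told apart here, since strand use in the counting is not given in the sources used here, and reads shared with pseudogene copies are likewise uncertain.

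Promoters are shown for the member that rose in all 3 tumour comparisons, Ndufa4, and for members that fell in all 3 and hold motifs of factors known to bind such genes. RefSeq promoters on GRCm38.p6, 250 bases before to 50 after the start, matched 69 members. The first 3 lines give the 250 bases before the start, 5′ to 3′ on the gene's strand, and the fourth a site after it. Capitals mark a motif found on either strand.
Ndufa4 (chr6:11907451-11907700, minus strand): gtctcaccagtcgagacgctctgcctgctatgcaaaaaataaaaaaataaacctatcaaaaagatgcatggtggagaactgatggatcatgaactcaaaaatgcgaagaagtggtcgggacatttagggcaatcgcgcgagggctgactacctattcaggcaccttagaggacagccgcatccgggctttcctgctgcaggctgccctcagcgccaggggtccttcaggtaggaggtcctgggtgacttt
Cox6a1 (chr5:115348959-115349208, minus strand): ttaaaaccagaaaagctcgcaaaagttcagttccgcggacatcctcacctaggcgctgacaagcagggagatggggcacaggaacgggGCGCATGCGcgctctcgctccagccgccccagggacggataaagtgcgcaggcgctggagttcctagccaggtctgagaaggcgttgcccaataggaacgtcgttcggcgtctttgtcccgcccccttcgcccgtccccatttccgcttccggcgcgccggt
Atp5h (chr11:115419920-115420169, minus strand): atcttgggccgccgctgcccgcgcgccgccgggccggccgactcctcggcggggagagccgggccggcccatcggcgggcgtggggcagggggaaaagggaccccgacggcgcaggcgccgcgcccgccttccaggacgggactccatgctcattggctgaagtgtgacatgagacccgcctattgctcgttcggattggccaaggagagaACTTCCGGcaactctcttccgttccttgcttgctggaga
Ndufa3 (chr7:3617385-3617412, plus strand): cgccaagaacAAGATGGCcgggagtaag
The capitals in Cox6a1 are the NRF1 core GCGCATGCG, those in Atp5h the ETS core CCGGAAGT read on the other strand, bound by GABPA, and those in Ndufa3 the YY1 core AAGATGGC. None of these 3 motifs, nor the ESRRA element TCAAGGTCA, is in the 300 bases of Ndufa4. Each of them was absent from most matched members too, so this does not set Ndufa4 apart. Ndufa6, Ndufv3, Sdha and Cox7a1, which fell in all 3 comparisons, held none of them either. A link of motifs with direction was not tested. The NRF1 core was in the promoters of 8 of 69 members (11.6%), against 1.95% of 27025 genes. The YY1 core was in 11 members (15.9%), against 3.19% of genes, and the ETS core in 5 (7.25%), against 4.31%. TCAAGGTCA was in 2 members, Atp5g3 and Sdhd (2.9%), against 0.47% of genes, and CCAAT in 31 (44.9%), against 41.1%. Member promoters were richer in GC, with a median of 57.3% against 52.7%, and a match is a description of letters only.

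Totals ran from 3414123 to 26174008 counts per library, and the ribosomal precursor gene Rn45s took 2.84% to 14.1% of them. Xist and Y-linked genes matched the labelled sex in all 21 libraries. Epithelial markers were present in every library, at a summed 5687 to 10345 CPM (counts relative to the TMM-scaled library total, used throughout). Knock-in male tumour replicate 3 stood apart in striated muscle markers: their summed level was 1397 CPM, against at most 28.5 in the other 20 libraries. Of the 8 markers, Acta1 was at 576 CPM and Ckm at 264 there, while the cardiac genes Myh6 and Myh7 were at 0. The members made up 0.69% to 0.945% of all counts in normal colon and 0.563% to 0.713% in tumours.

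Per kilobase of transcript, the catalytic ATP synthase subunit genes Atp5b (510.3 CPM per kb over all libraries) and Atp5a1 (350.1) were the highest members. In complex IV the order was Cox4i1 (314), Cox8a (283) and Cox6a1 (263). Complex III was led by Uqcr10 (178), complex II by Sdhd (109) and complex I by Ndufa6 (109), all on the same scale. In bulk RNA, fewer cells of a type and less RNA per cell cannot be told apart. Complex IV members summed to 1820.4 to 1904 CPM in wild-type female normal colon and 959 to 1009 in wild-type female tumours, to 1315 to 1745 and 895 to 993 in wild-type males, to 1339 to 1429 and 916 to 1055 in knock-in males, and to 1566 to 1875 in knock-in female normal colon. No tumour library reached the lowest normal library of its pair in complex II, III or IV. Complex V overlapped in knock-in males, at 2724 to 3396 CPM in normal colon and 2461 to 3009 in tumours. Complex I did not overlap in any of the 3 pairs, and in knock-in males its gap was small, from a highest tumour library of 1619 to a lowest normal library of 1652.

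**Figure D1:**
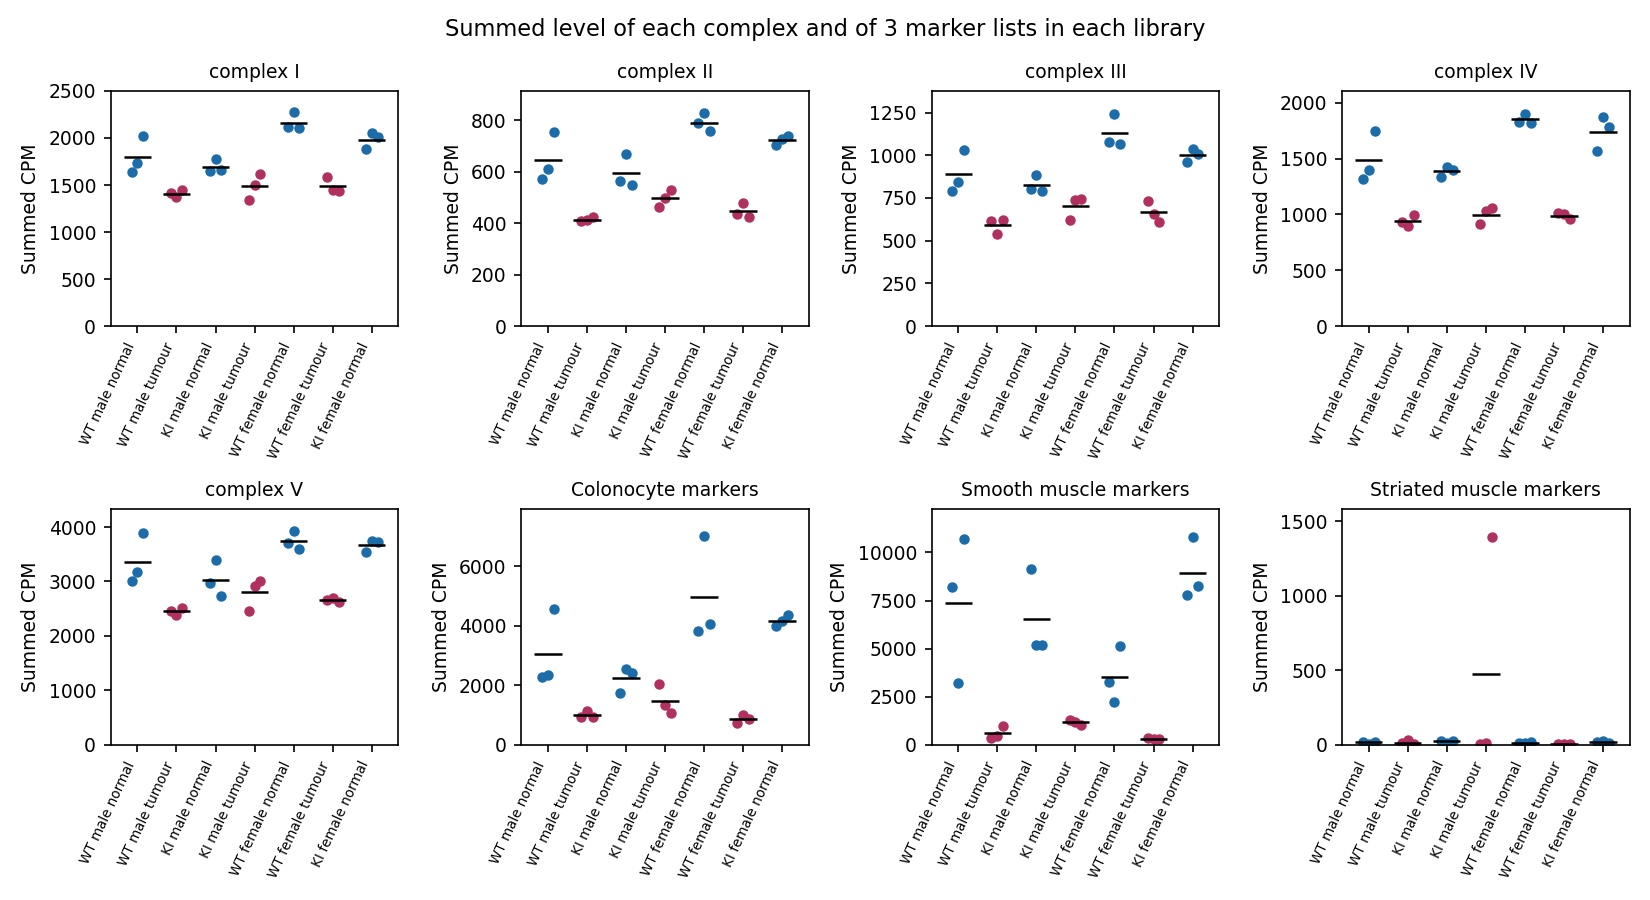
Summed CPM of the members of each complex and of 3 marker lists, 1 point per library, normal colon in blue and tumours in red, with the group mean as a bar (KI, knock-in; WT, wild-type). Tumours lie below normal colon in complex IV in each pair, colonocyte and smooth muscle markers are lower in tumours, and 1 knock-in male tumour holds 1397 CPM of striated muscle markers.

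Subunit genes fell in tumours of all 3 kinds, in wild-type mice across all 5 complexes. In wild-type males 51 of 79 tested members were lower in tumours and 2 higher at an adjusted p under 0.05, termed called (edgeR quasi-likelihood test, Benjamini-Hochberg over 15936 genes), where 19.3% of all tested genes were lower and 16.5% higher. In wild-type females 68 were lower and 2 higher, against 24% and 25% of all genes. In knock-in males 23 were lower and 1 higher, against 9.97% and 10.4%, and complexes II and III had 1 lower member each. The members' median log2 fold change was -0.51, -0.67 and -0.30 in these 3 comparisons, where the median of all genes was within 0.01 of 0. No library is shared between the 3 comparisons. The same 12 members were lower in all 3 (Ndufa1, Ndufa3, Ndufa6, Ndufb9, Ndufs7, Ndufv3, Sdha, Cox4i1, Cox6a1, Cox7a1, Cox8a and Atp5h), and 51 were lower in both wild-type comparisons. Ndufa4 alone was higher in all 3. Called in none were 8 members: Ndufs4, Ndufs8, Ndufc2, Ndufb3 and Ndufa4l2 of complex I, Cox4i2 of complex IV, and Atp5k and Atp5s of complex V. Every one of 12 processing settings called 46, 6 and 58 members in these 3 comparisons, in the order wild-type male, knock-in male and wild-type female, and the 6 of knock-in males were Ndufa1, Ndufa6, Cox5b, Cox6a1, Cox7a1 and Cox8a. Without replicate 3 of wild-type male normal colon 33 members were lower and none higher. In knock-in males, leaving out normal replicate 3 left 11 lower and 1 higher, leaving out tumour replicate 2 left 14 and 1, leaving out tumour replicate 3, which held striated muscle markers, gave 22 and 1, of which 22 were among the 24, and fitting the compared groups alone left 8 and 0. GC content and length offsets called 20 members in knock-in males, of which 14 were among the 24. The fold changes of knock-in males fell with transcript GC content (Spearman rho -0.46 over 79 members and -0.36 over 15788 genes, which are not independent), and the part of GC content was not tested.

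Cell type markers moved in the same comparisons. Of 9 tested colonocyte markers 8, 6 and 9 were lower in tumours of wild-type males, knock-in males and wild-type females, and their summed level was 2257 to 4554, 1731 to 2553 and 3815 to 7017 CPM in normal colon and 912 to 1131, 1054 to 2046 and 722 to 997 in tumours. All 10 smooth muscle markers were lower in each, from 3224 to 10694, 5179 to 9157 and 2222 to 5112 to 334 to 976, 1029.7 to 1277 and 270.3 to 328 CPM. Enteric neuron markers were lower for 5, 2 and 4 of 6, at 22.8 to 29.1 and 6.98 to 10.2 CPM in wild-type male normal colon and tumours, 19.2 to 28.99 and 11.1 to 16.4 in knock-in males, and 22.5 to 36.7 and 6.93 to 12.2 in wild-type females. Cycling markers were higher for 3, 6 and 6 of 6, and crypt progenitor markers for 3, 0 and 4 of 4. Lymphocyte markers were lower for 0, 2 and 3 of 6, macrophage and neutrophil markers higher for 2, 0 and 5 of 7, endothelial markers higher for 1, 0 and 3 of 4, and fibroblast markers higher for 0, 1 and 4 and lower for 1, 0 and 1 of 6. Pan-epithelial markers were lower for 5, 1 and 6 of 7 and higher for 1 in each. Rn45s, a sign of how well ribosomal RNA was depleted, took 4.90% to 8.26% of counts in wild-type male normal colon and 9.30% to 13.1% in tumours, 2.84% to 3.18% and 7.96% to 9.998% in wild-type females, neither overlapping, and 6.59% to 14.1% and 6.95% to 8.23% in knock-in males. The part of cell composition and of Rn45s in the subunit results was not tested.

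**Figure D2:**
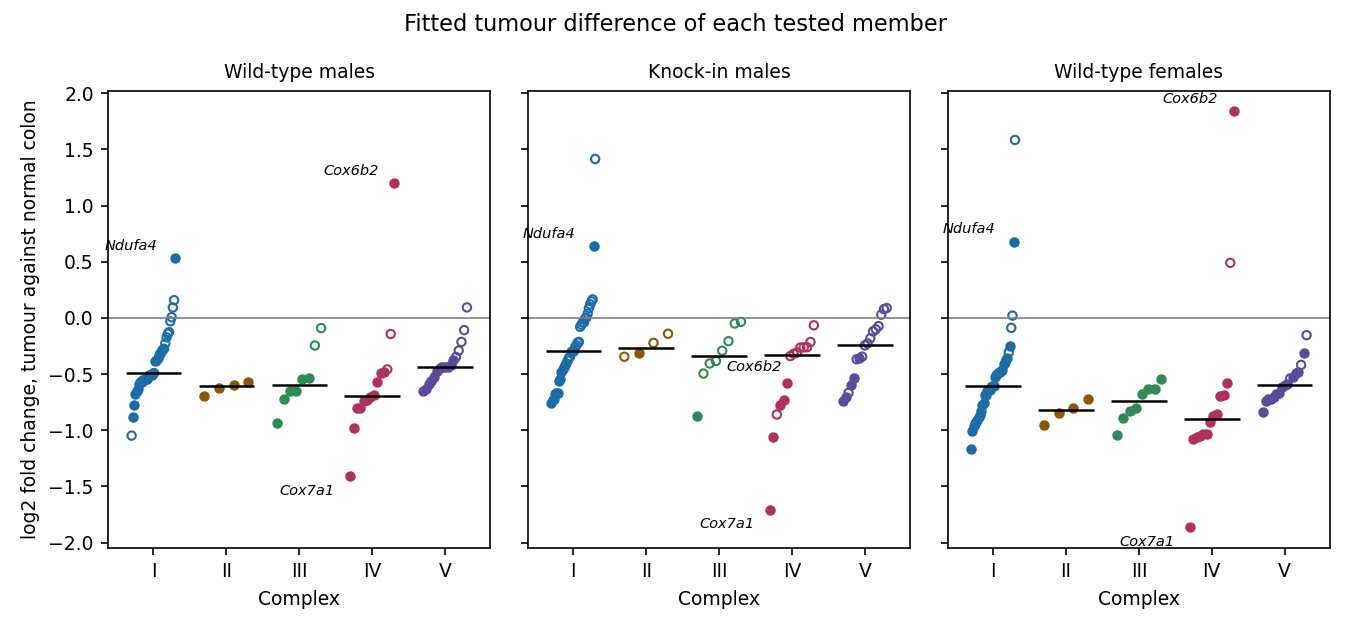
Fitted log2 fold change of each tested member between tumours and normal colon (vertical axis), by complex and comparison; filled points passed an adjusted p of 0.05, open points did not, and bars are medians. Most points lie below 0, with Ndufa4 above it in each panel and Cox7a1 lowest in each.

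Complex I, NADH dehydrogenase, had 19 lower and 1 higher of 36 tested members in wild-type male tumours, 11 and 1 in knock-in males, and 30 and 1 in wild-type females. The higher member was Ndufa4 in each, counted here by its symbol though now known as a complex IV subunit. Ndufs1, which carries iron-sulfur clusters of the electron path, was at 92.9, 104 and 121 CPM in wild-type male normal colon and 69.99, 68.97 and 75.6 in the tumours. It was at 139, 162 and 125 in female normal colon and 103, 83.5 and 87.9 in female tumours, with no overlap in either pair. In knock-in males the values were 91.9, 118 and 83.5 in normal colon and 106, 104 and 101 in tumours, which overlapped. The log2 fold changes were -0.57 ± 0.13 (SE, adjusted p = 0.00285), -0.64 ± 0.13 (SE, adjusted p = 0.000571) and 0.09 ± 0.13 (SE, adjusted p = 0.657). Among the other core subunits, Ndufv2 and Ndufs3 fell in both wild-type comparisons (-0.38 and -0.33 in males), Ndufs7 fell in all 3 (-0.49, -0.45 and -0.82), Ndufv1 passed in wild-type females (-0.53) and not in the males of either genotype (-0.30 and -0.08), and Ndufs8 in none (-0.03, -0.24 and -0.30).

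Accessory subunits of complex I, which surround the core and aid its assembly and stability, held the steepest falls. Ndufa1 (chrX:37187588-37191163, GRCm38, as for the genes that follow) was at 41.9, 41.1 and 42.3 CPM in wild-type female normal colon and 19.3, 17.7 and 18.9 in tumours, so each tumour was lower than any normal library. Its values were 20.9, 27.6 and 29.9 and 14.9, 13.97 and 16.5 in wild-type males and 26.1, 28.4 and 30.7 and 17.4, 14.6 and 18.6 in knock-in males, again without overlap. Ndufa1 fell by 55.4% in the female tumours (-1.17 ± 0.14 log2, SE, adjusted p = 3.1e-06), by 41.7% in wild-type males (adjusted p = 0.00042) and by 40.7% in knock-in males (adjusted p = 0.00266). Ndufa6, an LYR-motif accessory subunit, went from 95.4, 101 and 94.5 CPM to 56.6, 42.1 and 45.9 in wild-type females and from 68.2, 62.2 and 69.9 to 39.2, 37.4 and 44.1 in knock-in males. In wild-type males Ndufa6 was at 61.8, 64.7 and 83.2 in normal colon and 46.5, 43.7 and 51.9 in tumours, and it fell in all 3 (-0.56, -0.73 and -1.01). The most negative called member of the complex in wild-type males was Ndufa5, at 14.6, 15.9 and 18.7 CPM in normal colon and 10.3, 5.53 and 9.85 in tumours (log2 -0.88 ± 0.28, SE, adjusted p = 0.0183). Ndufa13, also known as Grim-19, fell in knock-in male and wild-type female tumours (-0.66 and -0.48, the latter with overlapping groups) and was at 0.16 ± 0.19 (SE, adjusted p = 0.544) in wild-type males. Over the called members of the complex that fell and are reported here, the log2 fold changes ran from -0.33 (Ndufs3) to -0.88 (Ndufa5) in wild-type males, from -0.41 (Ndufa7) to -0.75 (Ndufa1) in knock-in males and from -0.35 (Ndufa12) to -1.17 (Ndufa1) in wild-type females.

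Ndufa4 went the other way. The gene lies on the minus strand at chr6:11900292-11907497. Its level was 51.9, 51.4 and 43.8 CPM in wild-type male normal colon and 73.2, 72.2 and 67.9 in the tumours. Knock-in males had 51.8, 43.05 and 31.7 in normal colon and 55.3, 65.7 and 76.1 in tumours, and wild-type females 49.6, 53.8 and 44.9 and 84.6, 70.8 and 82.1. Knock-in female normal colon, at 46.5, 39.7 and 46.1, lay in the range of the other normal groups. Every one of the 9 tumour libraries was above all 12 normal libraries. It was called higher in 12, 10 and 12 of 12 processing settings in wild-type males, knock-in males and wild-type females. The log2 fold changes were 0.53 ± 0.15 (SE, adjusted p = 0.0104) for wild-type males, 0.64 ± 0.15 (SE, adjusted p = 0.00846) for knock-in males and 0.68 ± 0.15 (SE, adjusted p = 0.00111) in wild-type females. Ndufa4l2, its hypoxia-inducible paralog, was low and scattered, from 0.155 to 7.13 CPM over the 21 libraries, and passed in no tumour comparison (-1.05, 1.42 and 1.58).

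**Figure D3:**
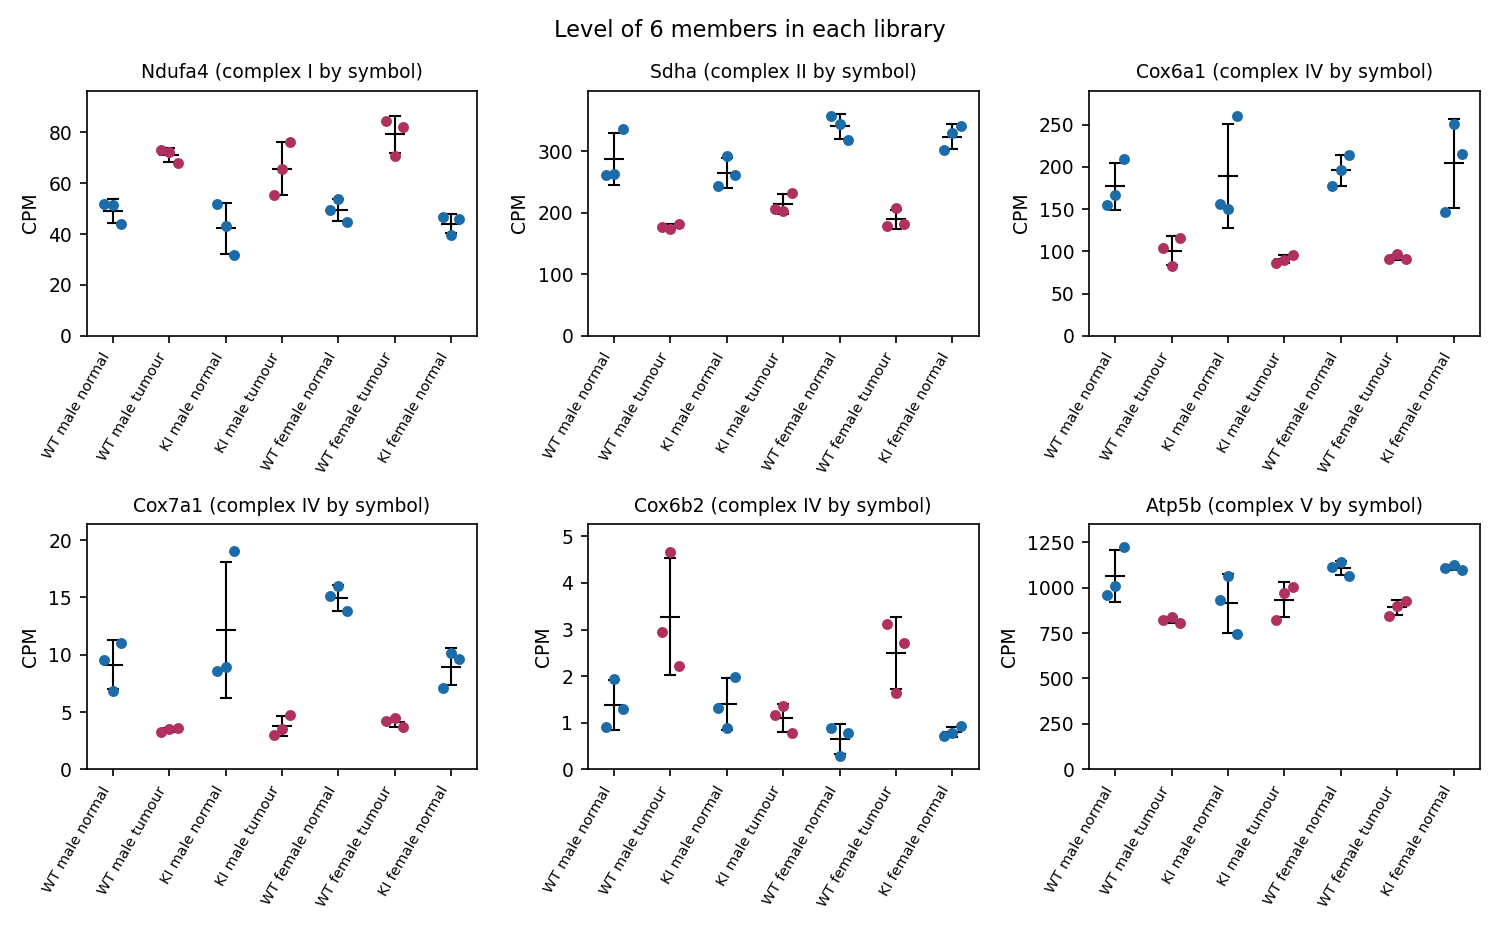
CPM of 6 members in each library (points; normal colon in blue, tumours in red) with the group mean and SD in black, complexes as the symbols give them. Ndufa4 is higher in every tumour than in any normal library, Sdha, Cox6a1 and Cox7a1 are lower in tumours of each pair, and Cox6b2, under 5 CPM in every library, is higher in wild-type tumours.

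All 4 subunit genes of succinate dehydrogenase fell in both wild-type comparisons. Sdha (chr13:74322254-74350280), the flavoprotein that oxidises succinate, was at 262, 264 and 336 CPM in wild-type male normal colon and 177, 173 and 182 in tumours, and at 358, 345 and 319 and 179, 208 and 182 in females. Knock-in males had 243, 292 and 262 and 206, 203 and 233, and no pair overlapped. Its log2 fold changes were -0.69 ± 0.11 (SE, adjusted p = 0.000122), -0.85 ± 0.11 (SE, adjusted p = 6.04e-06) and -0.31 ± 0.11 (SE, adjusted p = 0.0482). Sdhb, the iron-sulfur subunit, and the membrane anchors Sdhc and Sdhd changed by -0.95, -0.80 and -0.72 in wild-type females and -0.59, -0.57 and -0.62 in wild-type males. None of these 3 passed in knock-in males (-0.34, -0.22 and -0.14), and the fall of Sdha there was called in 7 of 12 processing settings.

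Complex III, the cytochrome bc1 complex, had 6, 1 and 8 of 8 members lower in tumours of wild-type males, knock-in males and wild-type females. Of all genes 19.3%, 9.97% and 24% were lower, so the share in knock-in males (12.5%) was near that of all genes. Uqcrb (chr13:66900617-66905378), a small subunit long known as the ubiquinone-binding protein, was at 57.8, 57.1 and 80.2 CPM in wild-type male normal colon and 34.2, 29.1 and 38.04 in tumours, and at 87.8, 105 and 85.8 and 45.9, 44.8 and 44.6 in females. It was the steepest of the complex in both, at -0.93 ± 0.16 (SE, adjusted p = 0.000242) and -1.04 ± 0.16 (SE, adjusted p = 2.99e-05). In knock-in males Uqcrb was at 58.5, 78.2 and 49.8 and 48.2, 54.01 and 50.3, overlapping, and did not pass (-0.29, adjusted p = 0.183). The Rieske protein gene Uqcrfs1 and the core protein genes Uqcrc1 and Uqcrc2 fell in both wild-type comparisons (-0.65, -0.54 and -0.72 in males) and not in knock-in males (-0.05, -0.21 and -0.03). The called member in knock-in males was the small subunit Uqcr11, from 37.8, 26.02 and 41.4 CPM to 16.2, 18.9 and 22.5 (log2 -0.87 ± 0.19, SE, adjusted p = 0.0055). In wild-type males Uqcr11 was at -0.09 and did not pass. Genes that passed in 1 genotype and not in the other are not thereby shown to differ between them.

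Complex IV, cytochrome c oxidase, had 11 lower and 1 higher of 14 tested members in wild-type male tumours, 5 and 0 in knock-in males, and 12 and 1 in wild-type females. Cox6a1 (chr5:115345642-115348981), the ubiquitous isoform of a regulatory subunit, was at 155, 166 and 209 CPM in wild-type male normal colon and 104, 82.1 and 116 in tumours. Knock-in males had 157, 149.8 and 260.04 and 86.6, 89.3 and 95.6, and wild-type females 178, 196 and 214 and 90.9, 96.5 and 90.8. Each tumour library was below the lowest normal library of its pair. The log2 fold changes were -0.81 ± 0.20 (SE, adjusted p = 0.00505), -1.06 ± 0.20 (SE, adjusted p = 0.003) and -1.08 ± 0.20 (SE, adjusted p = 0.000267). Cox8a, the ubiquitous isoform of another small subunit, fell in all 3 (-0.73, -0.73 and -1.03), as did Cox4i1, whose protein takes part in the regulation by ATP (-0.57, -0.58 and -0.85). Cox5a, Cox6c and Cox7b fell in both wild-type comparisons (-0.49, -0.81 and -0.98 in males) and did not pass in knock-in males (-0.07, -0.26 and -0.34). Cox5b passed in knock-in males and wild-type females (-0.78 and -0.70). In wild-type males it was at -0.46 and did not pass, but passed with the replicate block (log2 -0.48, adjusted p = 0.0119).

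Tissue isoforms of complex IV went in opposite directions. Cox7a1 (chr7:30184144-30186078), the isoform of heart and skeletal muscle, was at 9.54, 6.81 and 11.04 CPM in wild-type male normal colon and 3.24, 3.49 and 3.59 in tumours. It was at 8.60, 8.93 and 19.02 and 2.99, 3.55 and 4.70 in knock-in males and at 15.1, 16.03 and 13.8 and 4.21, 4.45 and 3.70 in wild-type females. It fell in each by 62.3%, 69.3% and 72.5% (adjusted p = 0.0012, 0.0022 and 3.59e-05), beside the fall of the smooth muscle markers given above. Per length, Cox7a1 made up 16.9% ± 0.946 (SD, n = 3) of the summed Cox7a1 and Cox7a2 level in wild-type female normal colon and 10.4% ± 0.948 (n = 3) in tumours. The widespread isoform Cox7a2 fell as well in wild-type mice (-0.70 in males and -1.06 in females). Cox6b2 (chr7:4751792-4753094), a testis isoform, was higher in wild-type tumours, at 0.898, 1.95 and 1.29 CPM in male normal colon and 2.95, 4.66 and 2.21 in male tumours, and 0.888, 0.279 and 0.774 and 3.12, 1.64 and 2.72 in females. The log2 fold changes were 1.2 ± 0.43 (SE, adjusted p = 0.0356) and 1.84 ± 0.46 (SE, adjusted p = 0.00289), at these low levels, and in males the rise was called in 8 of 11 settings and without 2 of 6 libraries. With the replicate number as a block in edgeR, the rise in males did not pass (log2 1.18, adjusted p = 0.0737). The labels do not say that equal numbers share an animal. Knock-in male tumours, at 1.16, 1.36 and 0.783, overlapped their normal colon, at 1.31, 0.886 and 1.99 (-0.31, adjusted p = 0.64). The ubiquitous partner Cox6b1 fell in wild-type males and females (-0.48 and -0.92), and Cox4i2, an oxygen-responsive isoform, stayed at or under 1.87 CPM in every library. In replicate 3 of the knock-in male tumours, Cox6a2 had 72 counts and Cox8b 66, where the other libraries had at most 4 and 14. These are the muscle isoforms, and that library is the one with striated muscle markers.

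Complex V had 11, 5 and 14 of 17 members lower in tumours of wild-type males, knock-in males and wild-type females, and none higher. Atp5b, the catalytic beta subunit, was at 959, 1010.2 and 1227 CPM in wild-type male normal colon and 820.3, 840.5 and 808 in tumours, and at 1114, 1142 and 1065 and 846, 902 and 927 in females. The falls were small, at -0.37 ± 0.12 (SE, adjusted p = 0.0216) and -0.31 ± 0.12 (SE, adjusted p = 0.038). Knock-in males, with 932, 1065 and 744 and 823, 969.99 and 1005, overlapped. Atp5a1, the alpha subunit, fell in both wild-type comparisons (-0.56 and -0.48) and was at -0.07 in knock-in males. The stalk genes Atp5c1 and Atp5o fell in wild-type males (-0.42 and -0.59) and females (-0.70 and -0.74). Atp5h, the peripheral stalk subunit d, fell in all 3: it was at 78.7, 83.9 and 92.7 CPM in wild-type male normal colon and 56.1, 51.8 and 54.98 in tumours, 78.1, 97.6 and 73.9 and 59.3, 70.2 and 65.1 in knock-in males, and 124, 128 and 103 and 71.7, 63.3 and 63.4 in females. Its log2 fold changes (gene at chr11:115415689-115419962) were -0.65, -0.36 and -0.84. Over all called members the falls ran from -0.37 (Atp5b) to -0.65 (Atp5h) in wild-type males. They ran from -0.31 (Atp5b) to -0.84 (Atp5h) in wild-type females. In knock-in males they ran from -0.36 (Atp5h) to -0.74 (Atp5sl). Atp5sl is counted here by its symbol and is no longer counted as an ATP synthase subunit. Atp5g1, Atp5g2 and Atp5g3 encode the same mature c-ring protein. Their transcript lengths were taken as 4715, 731 and 723 bases, so the shares that follow depend on the long transcript chosen for Atp5g1. Atp5g3 gave 78.6% ± 1.33 (SD, n = 3) of their summed level per length in wild-type male normal colon and 70.2% ± 5.28 (n = 3) in tumours, and Atp5g2 17.2% ± 1.37 and 25.6% ± 5.55. In wild-type females Atp5g2 gave 15.8% ± 3.11 and 17.7% ± 3.24 (n = 3 each), which overlapped. In knock-in males it went from 17.04% ± 1.77 in normal colon to 12.7% ± 1.12 in tumours (n = 3 each), opposite in direction to wild-type males. By library the wild-type male tumours were at 22.15%, 32.01% and 22.67%, highest in replicate 2, the library with the fewest counts. The shares were not tested, and no member's tumour effect differed between genotypes in males by edgeR. Transcript GC content was 56.6% for Atp5g2 and 50.5% for Atp5g3, and its part was not tested.

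**Figure D4:**
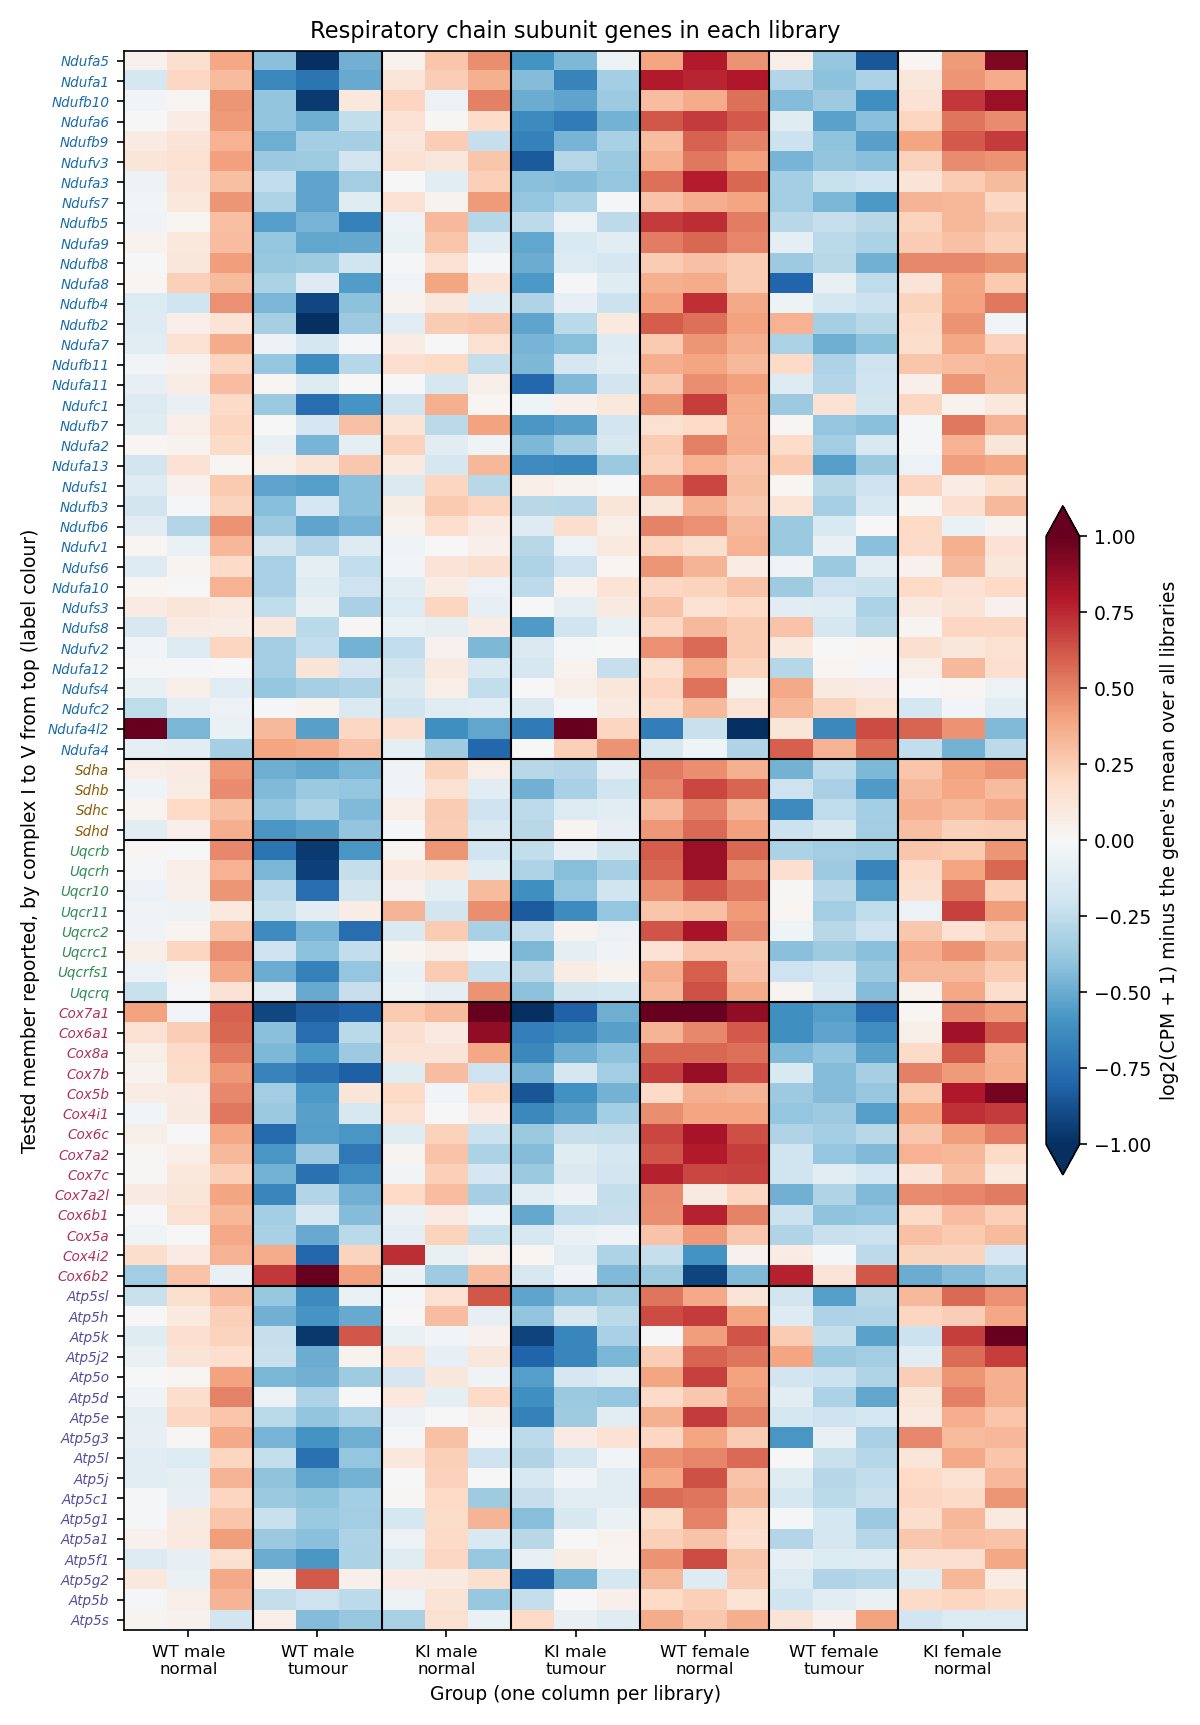
log2(CPM + 1) of the tested members reported here in each library, minus the gene's mean over the 21 libraries (blue lower, red higher), grouped by complex and ordered within it by the tumour mean. Tumour columns are mostly blue and normal columns red, darkest in wild-type female normal colon, with Ndufa4 and Cox6b2 reversed.

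Other mitochondrial gene lists were read in the same fits. There 19.3%, 9.97% and 24% of all genes were lower in tumours of wild-type males, knock-in males and wild-type females, and 16.5%, 10.4% and 25% higher. Of 16 citric acid cycle and pyruvate dehydrogenase genes, 11, 2 and 13 were lower in tumours of wild-type males, knock-in males and wild-type females, and 0, 1 and 0 higher, with medians of -0.45, -0.09 and -0.55. Citrate synthase, Cs, was at 597, 676 and 589 CPM in wild-type female normal colon and 267, 309.7 and 287 in tumours (-1.11 ± 0.13 log2, SE, adjusted p = 2.71e-06), and Suclg2 changed by -1.17 and -1.26 in wild-type males and females. Of 44 tested assembly factors, 9, 2 and 14 were lower and 1, 1 and 2 higher. Tmem126b, a complex I assembly factor, was at -0.80 and -0.92 in the wild-type comparisons, and Sdhaf1, of complex II, rose in wild-type females (1.21). Mitochondrial ribosomal protein genes, whose products make the mitochondrially encoded subunits, had 5, 2 and 12 of 77 lower and 2, 4 and 4 higher, with medians of 0.08, 0.04 and 0.07. Of 5 further genes of the chain that the symbol rule misses (Cyc1, Cycs, Ndufab1, Usmg5 and Atpif1), 0, 1 and 2 were lower. Cyc1, cytochrome c1 of complex III, passed in knock-in males (-0.49) and wild-type females (-0.44).

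Regulators of mitochondrial gene expression changed in both directions, 6, 3 and 5 of 17 tested being lower and 3, 2 and 4 higher in the same order. Ppargc1b, a coactivator that raises respiratory genes, was at 83.99, 100.1 and 92.6 CPM in wild-type female normal colon and 14.4, 20.2 and 16.96 in tumours. Its log2 fold changes were -2.09 for wild-type males, -1.31 for knock-in males and -2.42 for wild-type females, all called. The nuclear receptor Esrra fell in all 3 too (-0.48, -0.98 and -1.24), and Ppargc1a in both wild-type comparisons (-0.88 and -0.77). Pprc1, the third coactivator of the family, rose in these (0.88 and 0.91). Nrf1 did not pass in any tumour comparison (0.22, 0.14 and 0.22). Among carriers, the adenine nucleotide translocator Slc25a5 fell in wild-type males and females (-0.80 and -1.0), while its isoform Slc25a4 rose in females, from 23.8, 18.5 and 35.8 CPM to 66.3, 59.7 and 67.9 (1.32 ± 0.35 log2, SE, adjusted p = 0.00543). Adipocyte markers, of which 2 of 7 could be tested, were lower for 1, 0 and 0.

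The study asked how App mutations bear on AOM/DSS tumours, so knock-in and wild-type tumours of males were compared next. Of 79 members 12 were higher and 3 lower in knock-in tumours, against 9.3% and 5.23% of all genes, with a median log2 fold change of 0.13, where all genes had 0.05. The higher members were Ndufb6, Ndufc1, Ndufs1, Ndufs4, Sdhd, Uqcrb, Uqcrc2, Uqcrfs1, Cox7b, Cox7c, Atp5f1 and Atp5g3. Uqcrb was at 34.2, 29.1 and 38.04 CPM in wild-type and 48.2, 54.01 and 50.3 in knock-in tumours (log2 0.58 ± 0.16, SE, adjusted p = 0.0245). Ndufs1 was at 69.99, 68.97 and 75.6 and 106, 104 and 101 (log2 0.54 ± 0.13, SE, adjusted p = 0.0159). Ndufc1, a small membrane subunit of complex I, was at 18.3, 13.7 and 15.6 and 23.2, 24.7 and 25.7 (log2 0.61 ± 0.17, SE, adjusted p = 0.0236). None of the 3 overlapped between genotypes. Uqcrc2, of the same complex as Uqcrb, was at 0.53 ± 0.14 (SE, adjusted p = 0.0219), and Atp5g3 at 0.52 ± 0.14 (SE, adjusted p = 0.0265). The lower members were Atp5g2, at 40.6, 61.1 and 41.1 CPM and 22.1, 28.3 and 34.9 (log2 -0.73 ± 0.19, SE, adjusted p = 0.0193), Ndufa13 (chr8:69894180-69902558), at 34.1, 35.8 and 39.5 and 20.8, 20.5 and 25.1 (log2 -0.73 ± 0.19, SE, adjusted p = 0.0215), and Cox6b2 (log2 -1.49 ± 0.43, SE, adjusted p = 0.0313).

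These genotype calls depended on the processing. In every genotype comparison the knock-in libraries carried the higher running numbers, here 133, 136 and 154 against 113, 116 and 117. Genotype and this order cannot be told apart. Across the 79 members the fitted difference fell with transcript GC content (Spearman rho -0.63, n = 79 genes), as it did across 15788 genes (rho -0.43), and genes are not independent. With GC content and length offsets per library 3 members were higher and none lower, fitting the compared groups alone left 5 and 1, and without knock-in tumour replicate 2 no member was called. Leaving out knock-in tumour replicate 3, the library with striated muscle markers, gave 4 higher and 5 lower, and leaving out wild-type tumour replicates 1, 2 and 3 in turn left 3, 2 and 5 members. DESeq2's size factors in edgeR's test gave 8 higher and 4 lower, so the share of higher calls moved from 80% to 66.7%. With the replicate number as a block the balance turned, to 4 higher and 6 lower, 6 of these 10 being among the 15. Rn45s took 9.30% to 13.1% of counts in the wild-type and 6.95% to 8.23% in the knock-in tumours. No member was called in every processing setting. Striated muscle markers were called higher in knock-in tumours for 4 of 5 tested. Their summed level was 5.85, 11.2 and 1397 CPM in knock-in tumours and 9.58, 28.5 and 3.78 in wild-type tumours, so only knock-in replicate 3 stood apart. The part of GC content, of Rn45s and of striated muscle was not tested. Colonocyte markers were higher for 1 of 9.

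**Figure D5:**
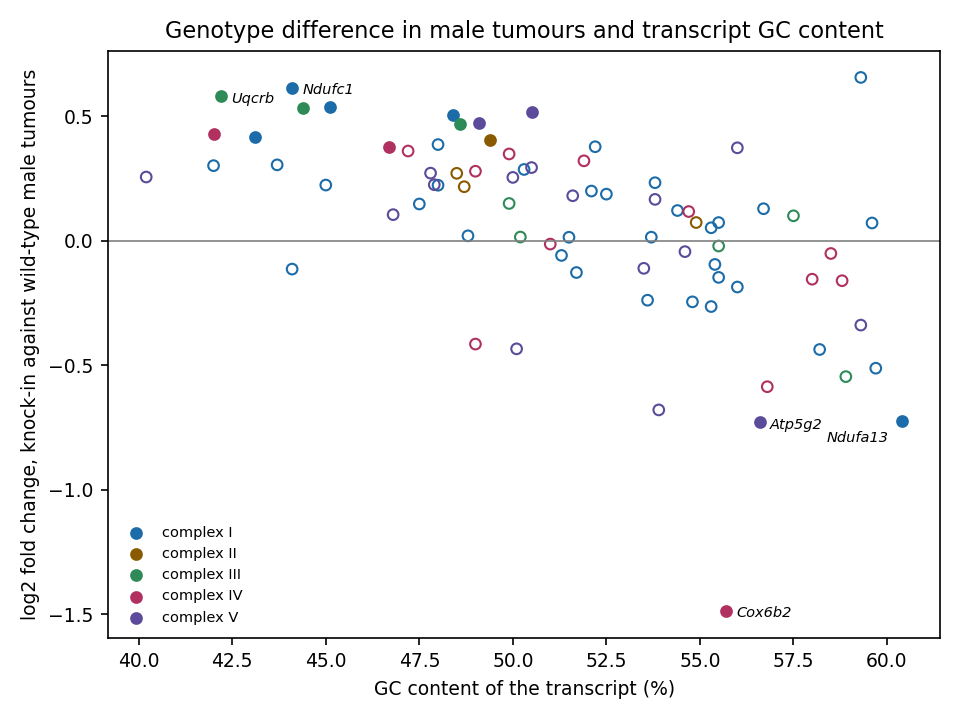
Fitted log2 fold change between knock-in and wild-type male tumours (vertical axis) against GC content of the principal transcript in percent, 1 point per tested member, filled where the adjusted p was under 0.05. Called higher members lie at the low GC end and called lower members at the high end.

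In male normal colon no member differed between genotypes (edgeR; 0 of 79 also at an unadjusted p under 0.05, and 0 by DESeq2 and by limma voom), where 0.00628% of all genes were higher and 0.00628% lower. The median log2 fold change over members was -0.07. In female normal colon 6 of 79 members (7.6%) were lower in knock-in mice and none higher, against 7% and 8.97% of all genes. The lower share was thus near that of all genes and does not set the members apart. The 6 were Ndufa1, Ndufa3, Ndufc2, Uqcrc2, Cox7a2 and Cox7c. Cox7c, a small conserved subunit, was at 165, 155 and 155 CPM in wild-type and 106, 119.6 and 103 in knock-in mice (log2 -0.53 ± 0.11, SE, adjusted p = 0.00389). Ndufa1 was at 41.9, 41.1 and 42.3 and 25.8, 32.7 and 31.1 (log2 -0.49 ± 0.14, SE, adjusted p = 0.0216), and Uqcrc2 at 269, 307 and 242 and 209.8, 192 and 205 (log2 -0.43 ± 0.14, SE, adjusted p = 0.0422), none overlapping. Smooth muscle markers were higher for 5 of 10 in the knock-in females, at 7779.7 to 10827 CPM against 2222 to 5112, fibroblast markers for 3 of 6, at 2172 to 2746 against 1126 to 1369, and endothelial markers for 3 of 4, at 149.98 to 165 against 63.1 to 91.1. The fitted member differences rose with GC content (rho 0.59, n = 79 genes; 0.36 across all genes), and with GC and length offsets no member was lower and 1 higher. Leaving out wild-type replicate 1 or 2 left 1 of the 6, the unnumbered knock-in replicate a left 2 and the unnumbered replicate b left 3. Leaving out knock-in replicate 1 left 1 and added 1 higher member, and leaving out wild-type replicate 3 gave 9 lower, 5 of them among the 6. Rn45s took 2.84% to 3.18% of counts in the wild-type and 4.85% to 5.96% in the knock-in females, and its part was not tested.

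Sex was compared within genotype. In wild-type normal colon 23 of 79 members were higher in females and none lower, against 5.74% and 10.2% of all genes, and the median log2 fold change was 0.29. The 23 included 9 of complex I, 1 of complex II, 3 of complex III and 5 each of complexes IV and V. Ndufa1 was at 20.9, 27.6 and 29.9 CPM in males and 41.9, 41.1 and 42.3 in females (log2 0.68 ± 0.14, SE, adjusted p = 0.0029). Cox7c was at 97.4, 104 and 114 and 165, 155 and 155 (log2 0.59 ± 0.11, SE, adjusted p = 0.00186), and Uqcrc2 at 169.6, 177 and 212 and 269, 307 and 242 (log2 0.55 ± 0.14, SE, adjusted p = 0.0131). Sdhb led complex II at 89.7, 97.3 and 129 and 130.2, 147 and 139 (log2 0.40 ± 0.13, SE, adjusted p = 0.0371), where the highest male library and lowest female library were close. Atp5l, a membrane subunit, led complex V at 47.05, 46.2 and 59.5 and 69.9, 71.9 and 76.03 (log2 0.51 ± 0.14, SE, adjusted p = 0.0215). Endothelial markers were lower in the females for 4 of 4, smooth muscle for 3 of 10, fibroblast for 3 of 6 and crypt progenitor markers for 4 of 4, and colonocyte markers higher for 1 of 9. The differences fell with GC content (rho -0.49, n = 79 genes; -0.37 across all genes), and with GC and length offsets 13 members were higher and 1 lower, 7 of these 14 being among the 23. Leaving out male replicates 1, 2 and 3 in turn gave 3, 7 and 33 members. Leaving out female replicates 1, 2 and 3 in turn gave 12, 4 and 20. Rn45s took 4.90% to 8.26% of counts in the males and 2.84% to 3.18% in the females, and its part was not tested. This comparison and that of knock-in with wild-type females use the same wild-type female libraries.

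In wild-type tumours 1 member was higher in females and none lower, against 0.402% and 0.458% of all genes. It was Ndufs4, an accessory subunit needed for complex I assembly, at 25.7, 26.8 and 27.2 CPM in males and 44.6, 36.3 and 36.1 in females (log2 0.55 ± 0.13, SE, adjusted p = 0.0483), and it passed neither with GC and length offsets nor without any 1 library. The member differences fell with GC content here too (rho -0.80, n = 79 genes; -0.47 across all genes). In knock-in normal colon no member passed by edgeR, where 0.182% of all genes were higher in females and 0.402% lower, while 24 members had an unadjusted p under 0.05, DESeq2 called 6 and limma voom 11, all higher in females. The median there was 0.23, and without knock-in male replicate 2 edgeR called 9, all higher.

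The difference in tumour effect was tested directly. No member's tumour effect differed between genotypes in males by edgeR, where 1.14% of all genes were above and 0.37% below, with 28 members at an unadjusted p under 0.05, 5 called by DESeq2 and 7 by limma voom. Among the 28, Ndufs1 differed by 0.66 ± 0.18 (SE, adjusted p = 0.062) and Uqcrc2 by 0.69 ± 0.20 (adjusted p = 0.065), with the tumour effect less negative in knock-in males. Leaving out knock-in male normal replicate 2 gave 14 members above and 2 below. A smaller fall in knock-in tumours is thus not shown for single members by the main test. Between sexes in wild-type mice no tumour effect differed by edgeR, against 0.929% of all genes above and 0.195% below, with 6 members at an unadjusted p under 0.05, 0 called by DESeq2 and 7 by voom, these 7 all more negative in females. The genotype effect in normal colon differed between sexes for none, against 1.76% and 0.778%, with 8 members unadjusted, 0 by DESeq2 and 3 by voom.

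Members followed each other across libraries. The correlation of a member's log2 CPM with the mean of the other members of its complex had a median Pearson r of 0.857 over the 21 libraries, which share depth and composition, and 55 of 79 members were above 0.8. Complex II was tightest, from 0.941 to 0.966. The lowest 5 were Cox6b2 (-0.71), Ndufa4 (-0.66, with complex I), Ndufa4l2 (-0.23), Cox4i2 (0.10) and Ndufc2 (0.11). Of these, Cox6b2, Ndufa4l2 and Cox4i2 had few counts, whereas Ndufa4 and Ndufc2 were at or above 31.7 and 30.5 CPM in every library.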

How the data were processed

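Counts per gene were deposited as 1 table, and no other per-sample column was present. Per the submitters' processing notes, the authors used Trimmomatic, HISAT2, featureCounts and DESeq2 with mm10, with no versions, annotation or strand setting given in the sources used here. Per the labels' protocols, libraries came from total RNA depleted of ribosomal RNA. Deposited counts were used as they stand: edgeR 4.0.16 in R 4.3.3 (filterByExpr by group, TMM, robust quasi-likelihood F test) was fitted to all 21 libraries and 15936 genes, with Benjamini-Hochberg adjustment and a threshold of 0.05, for 9 pairs of groups and 3 interactions. CPM are TMM-scaled, and lengths, GC content and coordinates come from GENCODE vM21 on GRCm38. Depth, from 3414123 to 26174008 counts, limits low genes most. No group's libraries agreed within sampling noise.

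The members and gene lists were chosen with earlier results of these data known. Genes were named by role, as isoform families, as the called member with the largest change each way per complex and comparison, as called members against the majority of their complex, and as every call where 5 or fewer were made. Other named genes belong to the lists, and some were named after their values were seen. The values of 1 complex I member are not reported here, though counts include it. A column header shared by 2 knock-in female libraries left these without a number (a and b). Replicate numbers come from the labels, and same-numbered libraries deviated together in every pair only between wild-type male tumours and normal colon (correlations 0.169 to 0.215). Alternatives were DESeq2 1.42.0 (size factors, and its Wald test), limma 3.58.1 voom with quality weights, library totals, other filters (none, or 50 counts on average), fits of the compared groups alone, a replicate block, the libraries with a running number of 152 or more as a covariate, GC content and length offsets, and leaving out each replicate. On simulated counts of 15642 genes for wild-type male tumours against normal colon, edgeR recovered 59 of 100 genes changed by 1 log2 unit and 85 of 100 changed by 2, with 9 false calls.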

Additional observations from a re-analysis of the deposited data

How the results depend on the processing

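Over 12 comparisons and all alternatives no called result of a named member reversed its direction, and in wild-type males and wild-type females the number of called members stayed within 1.5 times under each alternative other than leaving out single replicates. Counts of called members out of 79 that moved further follow, and the cause was not tested. In knock-in male tumours, 24 became 14 with limma voom and 8 with the compared groups alone. Between genotypes in male tumours, 15 became 3 with GC content and length offsets, 6 with the compared groups alone, 7 with the running number as covariate and 2 with the replicate block and GC content and length offsets. Between genotypes in female normal colon, 6 became 10 with DESeq2, 1 with GC content and length offsets, 2 with library totals, 18 with limma voom and 3 with no filter. Between sexes in wild-type normal colon, 23 became 14 with GC content and length offsets, 13 with library totals, 44 with limma voom, 11 with the compared groups alone, 15 with the replicate block and 7 with the block and the offsets. Between sexes in wild-type tumours, 1 became 2 with DESeq2 and with a mean of at least 50 counts, 16 with limma voom, 5 with the compared groups alone, and 0 with DESeq2's size factors, GC content and length offsets, no filter, the replicate block, the block with offsets and the running number. Between sexes in knock-in normal colon, 0 became 6 with DESeq2, 1 with the offsets and 11 with limma voom. For the tumour effect, 0 became 5 with DESeq2 and 7 with limma voom between genotypes, and 7 with limma voom between sexes. For the genotype effect between sexes, 0 became 3 with limma voom.

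Leaving out single replicates gave 33 to 58 called members in wild-type male tumours, 12 to 24 in knock-in male tumours, 60 to 69 in wild-type female tumours, 0 to 10 between genotypes in male tumours, 0 to 0 in male normal colon, 1 to 9 in female normal colon, 3 to 33 between sexes in wild-type normal colon, 0 to 0 in wild-type tumours, 0 to 9 in knock-in normal colon, and 0 to 16, 0 to 1 and 0 to 0 for the interactions of tumour effect with genotype, of tumour effect with sex, and of genotype with sex. A group left with fewer libraries borrows its spread from the shared fit. With the replicate block, wild-type male tumours had 1 higher and 53 lower, knock-in males 1 and 28, wild-type females 2 and 67, and knock-in against wild-type male tumours 4 and 6. Beyond the pair given in the methods, same-numbered libraries did not all deviate together (correlations from -0.3 to 0.461). The block was not run where knock-in females enter, since 2 of their libraries carry no number. Library totals moved the median of all genes by 0.15 in wild-type female tumours, and the members there still had 2 higher and 56 lower. Among single members that the text may name, 1658 results under alternatives other than leaving out replicates kept their side of the threshold. Another 105 lost the call and 30 gained it. When single replicates were left out, 868 kept their side, 113 lost the call and 9 gained it.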

Other observations

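One relative of Ndufa4 that the symbol rule does not take is AA467197, also called Nmes1, named here after its values were seen. Its protein is known to take the place of NDUFA4 in complex IV of inflamed cells. AA467197 was at 91.8, 81.2 and 109 CPM in wild-type male normal colon and 39.7, 41.3 and 39.05 in tumours, and at 165, 132 and 133 and 35.99, 55.6 and 53.9 in wild-type females. In these wild-type tumours it was lower and Ndufa4 higher. In knock-in males normal colon had 69.5, 100.2 and 56.2 and tumours 74.7, 72.7 and 67.9, which overlapped. Ndufa4 was called higher in knock-in male tumours too, so the opposite changes were not seen there. The log2 fold changes by edgeR were -1.23 ± 0.19 (SE, adjusted p = 9.25e-05), -1.56 ± 0.19 (adjusted p = 3.17e-06) and -0.07 ± 0.18 (adjusted p = 0.812). Between genotypes its tumour effect in males differed by 1.16 ± 0.26 (SE, adjusted p = 0.0442), where no subunit gene passed. Colonocyte markers fell in the same tumours, and the part of cell composition was not tested. These values come from the edgeR test of all libraries alone, with no alternatives computed for this gene.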
